A study of Mus musculus with 12 samples.

Results

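The constructs described here target Pdcd1 in mouse CD8+ T cells and target neither Ctla4 nor Adora2a. They were taken by name from a pooled CRISPR library: every construct whose target list held Pdcd1, held neither Ctla4 nor Adora2a, and held any number of the other checkpoint genes Tigit, Btla and Havcr2. This gave 48 of the 689 constructs analysed, in 8 of the 101 targeted combinations, with 6 constructs each: Pdcd1 alone, Pdcd1+Tigit, Btla+Pdcd1, Havcr2+Pdcd1, Btla+Pdcd1+Tigit, Havcr2+Pdcd1+Tigit, Btla+Havcr2+Pdcd1 and Btla+Havcr2+Pdcd1+Tigit. Membership rests on the names alone, though earlier results of these data were known when the set was chosen.

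The cells came from C57BL/6 mice, and every library, in tumours and before transfer, held T cells that carried the lentiviral sgRNA library. Each construct held 4 sgRNAs in a row, with non-targeting sgRNAs in the places that a combination of fewer than 4 genes did not use, and mKate2 marked the transduced cells, which were 5 to 10% of the 10000000 CD8+ T cells given to each mouse. The tumour-infiltrating lymphocytes (TIL) were CD8+mKate2+ cells sorted from tumours 7 days after transfer into mice that had been inoculated 12 days before it, and each of the 3 TIL replicates pooled cells of 3 to 4 mice, with 20000 to 40000 such cells per tumour. The starting reference (SR) was a frozen portion of the transduced cells, again in 3 replicates, and 84 non-targeting constructs in the same cells served as the negative control. The tumour line is Hepa1-6, a mouse hepatoma line, going by the name of the deposited workbook. Each replicate was read over 2 regions of the construct, region 1 with the spacers at positions 1 and 2 and region 2 with those at positions 2 and 3, so the sgRNA at position 4 was never read. Labels do not say that the SR replicates were separate cultures, so p-values measure the spread between these libraries, which may be technical.

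Pdcd1 encodes PD-1, an inhibitory receptor that activated T cells put on their surface and that dampens signalling from the T cell receptor when it meets its ligands. Tigit encodes a receptor that competes for ligands shared with a co-stimulatory receptor. Btla encodes an inhibitory receptor of the immunoglobulin family that binds a TNF receptor family member, and Havcr2 encodes TIM3, which marks exhausted T cells in tumours. PD-1 is a marker of tumour-reactive and exhausted CD8+ T cells and the target of widely used antibodies in cancer treatment. In the screen, a construct that makes up more of the TIL than of the SR library marks cells that were overrepresented in the tumour.

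The library used 9 spacers against Pdcd1, and the members drew on all of them. They are shown because each member carries 1 of them and because their yields in the tumours differed. Capitals mark the 10 bases at the 3′ end, the end next to the PAM in a Cas9 target site.
Pdcd1 spacer 1: agatcatacaGCTGCCCAAC
Pdcd1 spacer 2: caatacagggATACCCACTA
Pdcd1 spacer 3: cagcttgtccAACTGGTCGG
Pdcd1 spacer 4: ccctcaccttCTACCCAGCC
Pdcd1 spacer 5: ctgcagttgaGCTGGCAATC
Pdcd1 spacer 6: gctcaaaccaTTACAGAAGG
Pdcd1 spacer 7: tctgggcatgTGGGTCCGGC
Pdcd1 spacer 8: tgaatgaccaGGGTACCTGC
Pdcd1 spacer 9: tgttgggcagCTGTATGATC
Spacers 1 and 9 cover the same site on opposite strands, sharing 19 bases. Constructs of a combination are lettered A to F in the alphabetical order of their deposited names. The partner spacers of the members detected in 2 TIL replicates, and of the 2 members with the highest change, are the following, with capitals as above.
Tigit spacer 3, in Pdcd1+Tigit A and Btla+Pdcd1+Tigit E: cccaccaggaTACGTATGAT
Tigit spacer 9, in Pdcd1+Tigit F: tgcaagccttACCTGTAGCG
Tigit spacer 6, in Btla+Havcr2+Pdcd1+Tigit E: ggccatttatAGTGTTGACC
Btla spacer 8, in Btla+Havcr2+Pdcd1+Tigit E: tgggactcctCGGTTATTTA
Btla spacer 10, in Btla+Pdcd1+Tigit E: ttgggactccTCGGTTATTT
Havcr2 spacer 10, in Havcr2+Pdcd1 C: ttgttacagcCTTATTACAC
Havcr2 spacer 4, in Btla+Havcr2+Pdcd1+Tigit E: ctaaagggcgATCTCAACAA

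Reads are deposited as whole numbers that the authors had scaled by an unstated factor of the library, called scaled reads here, with 8288404 to 23012713 per TIL library and 9963617 to 25646820 per SR library. The share of a library taken by a construct, averaged over the regions, is given in CPM (its scaled reads divided by the library total, times 1000000), and changes are differences of log2(CPM + 1), a scale on which the fall of an unseen construct comes out too small. The SR libraries of different replicates correlated at 0.963 to 0.986 across the 689 constructs on this scale, against 0.451 between TIL 1 and TIL 2, 0.0944 between TIL 1 and TIL 3 and 0.145 between TIL 2 and TIL 3. SR constructs were amplified by direct PCR and TIL constructs by PCR in 2 steps, and TIL cells were mixed with carrier cells before DNA extraction, so the way of amplification and the change between TIL and SR cannot be told apart. Wilson intervals below cover counting error only, and the intervals of changes rest on the spread between the libraries. Over several replicates, Wilson intervals treat the cases of 1 construct as independent, which they are not.

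In the tumours a few of the 48 constructs held most of the reads of the group. Together they made up 10.0, 9.47 and 4.69% of the reads in TIL 1, 2 and 3, against 6.49, 6.13 and 6.20% in SR 1, 2 and 3, and 6.97% of the library by number. The median member had 0.354, 0.255 and 0.0440 CPM in TIL 1, 2 and 3 and 1292, 1165 and 1170 CPM in the SR replicates. The median over the whole library was similar, with 0.279, 0.0869 and 0.0440 CPM in TIL and 1207, 1082 and 1092 CPM in SR. Detection meant more than 1000 scaled reads in region 1 and also in region 2. In TIL 1 there were 7 members detected, 14.6% (Wilson 95% interval 7.25 to 27.2%), against 11.3% of all constructs; in TIL 2 there were 5, 10.4% (4.53 to 22.2%), against 8.85%; and in TIL 3 there were 7, 14.6% (7.25 to 27.2%), against 14.1%. Over the 3 replicates this came to 19 of 144 cases, 13.2% (8.61 to 19.7%), beside 11.4% for the whole library and 16 of 252 cases, 6.35% (3.95 to 10.1%), for non-targeting constructs. Constructs with 1 to 3 of Tigit, Btla and Havcr2 and no Pdcd1 were detected in 15 of 126 cases, 11.9% (7.35 to 18.7%). The detection rate of the 48 constructs was therefore close to that of the library. Detected members carried 96.3, 63.8 and 75.0% of the reads of the group in TIL 1, 2 and 3, with 3992 to 41741 CPM in TIL 1, 8513 to 21506 CPM in TIL 2 and 2305 to 8177 CPM in TIL 3. Members over the threshold in neither region, 40, 41 and 38 in number, had at most 1.24, 6.87 and 1.37 CPM in TIL 1, 2 and 3. No member was detected in all 3 replicates, 6 were detected in 2, which is 12.5% beside 6.24% of all constructs, 7 in 1 (14.6% beside 19.2%) and 35 in none (72.9% beside 73.7%).

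Construct by construct, most members fell between SR and TIL and none rose. In limma over all 689 constructs with Benjamini-Hochberg adjustment, 32 of the 48 fell, beside 67.8% of the library, and 0 rose, beside 0.435%, with 0 higher at an unadjusted p under 0.05 as well. The median change of the members was -8.89, against -8.50 over all constructs and -9.00 over non-targeting constructs. For 33 members every TIL value lay below every SR value, which is 68.8% beside 69.8% of the library. The lowest changes were those of Btla+Pdcd1+Tigit F, at -10.65 ± 0.18 (SE, n = 3; limma adjusted p = 1.94e-07), and Btla+Havcr2+Pdcd1+Tigit F, at -10.62 ± 0.23 (limma adjusted p = 4.43e-07). The first had 0.49, 0.13 and 0.04 CPM in TIL 1, 2 and 3 and 1952, 1790 and 2074 CPM in SR 1, 2 and 3, and the second 0.59, 0.72 and 0.04 CPM in TIL and 2134, 2290 and 2299 CPM in SR. Both were among the more abundant members before transfer and had almost no reads in any tumour pool. Set against the mean of the non-targeting constructs, 9 members were lower, 18.8% beside 21% of the library, and 1 was higher, beside 4.64%. The 9 were undetected in every TIL replicate and had started high, at 1245 to 2241 CPM in SR (median 1422), while the other 26 undetected members had started at 110 to 1858 CPM (median 741); the part of starting abundance in these calls was not tested. That 1 was Btla+Pdcd1+Tigit E, whose regions disagreed, as described below.

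Of the 6 constructs against Pdcd1 alone, 3 were detected in the tumours, each in 2 replicates, and the other 3 were not detected. Construct A (spacer 1) had 12305, 21506 and 0 CPM in TIL 1, 2 and 3, against 1458, 1262 and 1400 CPM in SR 1, 2 and 3. It stood 8.44-fold and 17.0-fold over SR in TIL 1 and TIL 2 and had no reads in TIL 3. Construct E (spacer 6) had 16477, 10808 and 0 CPM in TIL, against 1035, 1217 and 1193 CPM in SR. Its pattern was the same, 15.9-fold and 8.88-fold over SR in TIL 1 and TIL 2 and no reads in TIL 3. Construct F (spacer 7) had 0.77, 10454 and 5771 CPM in TIL, against 4035, 4883 and 4652 CPM in SR. It was the most abundant member before transfer, was nearly missing from TIL 1, and stood 2.14-fold over SR in TIL 2 and 1.24-fold in TIL 3. The remaining constructs B, C and D (spacers 2, 3 and 5) had at most 0.22 CPM in any TIL replicate, against 636 to 1333 CPM in SR, and each of them fell (log2 changes of -9.73, -9.35 and -10.22; limma adjusted p = 1.29e-07, 2.01e-07 and 1.29e-07). The changes of A, E and F were -1.10 ± 4.29, -1.03 ± 4.20 and -3.25 ± 3.72 (SE, n = 3; limma adjusted p = 0.818, 0.824 and 0.457), so the spread between replicates exceeded each of them.

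The value of a combination is the mean log2(CPM + 1) of its constructs minus that of the non-targeting constructs in the same library, tested between TIL and SR with limma over 101 combinations. For Pdcd1 alone it was 3.83, 6.37 and 0.40 in TIL 1, 2 and 3 and 0.73, 1.03 and 0.98 in SR 1, 2 and 3. TIL 1 and TIL 2 lay above the SR libraries and TIL 3 below them. The change of 2.62 ± 1.34 (SE, n = 3; 95% interval -0.49 to 5.73) did not pass (limma adjusted p = 0.354). The authors' deposited log2 ratios gave 2.86 (limma adjusted p = 0.0324). That fit tested the 3 ratios of TIL to the SR of the same table against 0, and gave every combination the same SE of 0.91. Constructs of Pdcd1 alone were detected in 6 of 18 cases, 33.3% (Wilson interval 16.3 to 56.3%), the highest share among the 8 combinations. By replicate, 2, 3 and 1 of the 6 constructs were detected in TIL 1, 2 and 3. The whole library stood at 11.4%. All 6 detections came from constructs A, E and F, so the 18 cases are not independent and the interval is too narrow.

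Pdcd1+Tigit had the highest change of the 8 combinations, and its TIL 2 value rested on 1 construct whose regions disagreed. Its value was 3.87, 2.52 and 4.19 in TIL 1, 2 and 3 and 0.75, 0.81 and 0.73 in SR 1, 2 and 3. The change was 2.77 ± 0.58 (SE, n = 3; 95% interval 1.41 to 4.12), the fifth largest of the 101 combinations by rank, with an unadjusted p of 0.00167 and a limma adjusted p = 0.0845, which misses the threshold of 0.05. In limma 1 of the 101 combinations passed as higher, 0.99%, and 0% as lower; of the 8 combinations here 0 passed in either direction, with 1 higher and 0 lower at an unadjusted p under 0.05. With a pseudocount of 0.5 or with region 1 alone it passed (limma adjusted p = 0.0486 and 0.0407), and by the lower region of each construct the change was 1.15 (limma adjusted p = 0.590). Different constructs carried the value in different tumour pools. Construct F (Pdcd1 spacer 7) had 3992, 1.49 and 6466 CPM in TIL, against 4311, 4405 and 3984 CPM in SR. It came close to its SR level in TIL 1, passed it in TIL 3 and was nearly absent from TIL 2. Construct B, with the same Pdcd1 spacer, was detected in TIL 3 with 2707 CPM, against 1464 CPM in SR 3, and had under 1 CPM in TIL 1 and TIL 2, at 0.74 and 0.28 CPM. Construct A (spacer 6) had 41741, 25457 and 0 CPM in TIL, against 1738, 1393 and 1147 CPM in SR. It was the most abundant member in TIL 1 and TIL 2, with 41.7 and 26.9% of the reads of the group, and in TIL 2 it alone of the 6 constructs exceeded 1.68 CPM, with 1171633 scaled reads in region 1 and 29 in region 2. Its change over all replicates was -0.46 ± 4.60 (SE, n = 3; limma adjusted p = 0.925). Constructs C and E (spacer 5 in both) had at most 1.68 CPM in TIL, and D exceeded the threshold in 1 region of TIL 3 only. The combination was detected in 4 of 18 cases, 22.2% (9.00 to 45.2%), with 2, 0 and 2 of 6 constructs in TIL 1, 2 and 3. Tigit without Pdcd1 was detected in 2 of 18 cases, 11.1%, and the whole library stood at 11.4%.

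With Havcr2 in place of Tigit, detection came to 3 of 18 cases, 16.7% (5.84 to 39.2%), beside 11.4% for the whole library. Havcr2 without Pdcd1 was detected in 5 of 18 cases, 27.8%. Havcr2+Pdcd1 C (Pdcd1 spacer 1, Havcr2 spacer 10) had 7979, 8513 and 0.04 CPM in TIL 1, 2 and 3, against 1582, 1544 and 1721 CPM in SR 1, 2 and 3. Like the constructs A and E of Pdcd1 alone it was above SR in TIL 1 and TIL 2, by 5.04-fold and 5.51-fold, and nearly missing from TIL 3. Its change was -1.96 ± 3.97 (SE, n = 3; limma adjusted p = 0.665). Construct A was detected in TIL 3 with 3279 CPM, against 3140 CPM in SR 3. The value of the combination was 1.38, 1.99 and 0.40 in TIL and 0.60, 0.60 and 0.77 in SR, a change of 0.60 ± 0.56 (SE, n = 3; 95% interval -0.71 to 1.91; limma adjusted p = 0.639). With the median over constructs in place of the mean the change was -0.68 (limma adjusted p = 0.0163). Since 1 of 6 constructs was detected per TIL replicate, the TIL median lay among constructs with almost no reads. This median change therefore cannot tell a change in the tumour from the starting level.

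None of the 6 constructs that paired Pdcd1 with Btla alone was detected in any TIL replicate. This was 0 of 18 cases (Wilson interval up to 17.6%), beside 11.4% for the whole library. Constructs against Btla without Pdcd1 were also detected in 0 of 18 cases. No Btla+Pdcd1 construct exceeded 1.03 CPM in TIL, against 361 to 1516 CPM in SR. All 6 fell, beside 67.8% of the library, with changes between -10.28 and -8.52 (limma adjusted p up to 9.85e-06). The value of the combination was -0.46, -0.26 and -1.70 in TIL 1, 2 and 3 and 0.11, -0.03 and 0.01 in SR 1, 2 and 3. The change in the fit was -0.84 ± 0.55 (SE, n = 3; 95% interval -2.13 to 0.46; limma adjusted p = 0.504), which is no call. With the median over constructs in place of the mean the change was 0.35 (limma adjusted p = 0.118). Btla+Pdcd1 was the only 1 of the 8 combinations with a change below 0, and 93rd of 101 when ranked from the highest. Since no construct was detected, its TIL values came from constructs with almost no reads. Btla without Pdcd1 had similar TIL values, at -0.76, -0.43 and -1.65. The sign and rank of Btla+Pdcd1 therefore cannot tell a change in the tumour from the starting level.

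None of the 3 combinations of Pdcd1 with 2 partners passed the test. Each had at most 1 detected construct per TIL replicate, so their changes by the median carry the limit given for Havcr2+Pdcd1. Btla+Havcr2+Pdcd1, Havcr2+Pdcd1+Tigit and Btla+Pdcd1+Tigit were detected in 1, 2 and 0 of 18 cases. The same sets without Pdcd1 had 0, 3 and 3 of 18, and the whole library stood at 11.4%. Btla+Havcr2+Pdcd1 had -0.67, 0.13 and 2.35 in TIL 1, 2 and 3 and -0.28, -0.26 and -0.24 in SR, a change of 0.87 ± 0.79 (SE, n = 3; limma adjusted p = 0.639), and 0.67 with the median over constructs (limma adjusted p = 0.00153). Its TIL 3 value rested on construct C, with 2305 CPM in TIL 3 against 3072 CPM in SR 3, and on construct A, which exceeded the threshold in region 1 only. Havcr2+Pdcd1+Tigit had 1.502, -0.298 and 0.51 in TIL and 0.08, -0.14 and 0.01 in SR, a change of 0.59 ± 0.59 (SE, n = 3; limma adjusted p = 0.660). It was detected through construct F in TIL 1, with 7577 CPM against 617 CPM in SR 1, 12.3-fold, and through construct C in TIL 3, with 8177 CPM against 1449 CPM in SR 3, 5.64-fold. Neither construct was detected in another replicate. Btla+Pdcd1+Tigit had 1.24, 2.05 and 0.10 in TIL and 0.62, 0.71 and 0.77 in SR, a change of 0.43 ± 0.61 (SE, n = 3; limma adjusted p = 0.763), and no construct passed the threshold in both regions of any TIL replicate. The regions of construct E disagreed, and the change of the combination was -0.72 in region 1, -0.11 in region 2, -1.50 by the lower region and -0.33 with the median over constructs (limma adjusted p = 0.574, 0.936, 0.261 and 0.0332).

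All 4 genes together gave 3 detections in 18 cases, 16.7% (5.84 to 39.2%). The set without Pdcd1 gave 2 in 18, 11.1%, and the whole library stood at 11.4%. Btla+Havcr2+Pdcd1+Tigit E, the only 1 of the 48 constructs with the Pdcd1 sgRNA at position 4, had 6303, 9151 and 0.11 CPM in TIL 1, 2 and 3, against 2377, 1796 and 1924 CPM in SR 1, 2 and 3. It was 2.65-fold and 5.10-fold over SR in TIL 1 and TIL 2 and nearly missing from TIL 3, with a change of -2.33 ± 3.91 (SE, n = 3; limma adjusted p = 0.606). Construct D was detected in TIL 3, with 6460 CPM against 1969 CPM in SR 3. The value of the combination was 1.57, 2.10 and 0.67 in TIL and 0.93, 1.15 and 1.17 in SR, a change of 0.36 ± 0.54 (SE, n = 3; 95% interval -0.90 to 1.63; limma adjusted p = 0.763), and -0.83 with the median over constructs (limma adjusted p = 0.0163). Across the 8 combinations the median change was 0.60, beside 0.52 over all 101 and 0.86 over the 56 checkpoint combinations, and 7 of 8 lay above 0, beside 72 of 101. Centred on all constructs instead of the non-targeting ones, 4 of these 7 lay below 0: Btla+Havcr2+Pdcd1+Tigit at -0.26, Btla+Pdcd1+Tigit at -0.19, Havcr2+Pdcd1+Tigit at -0.03 and Havcr2+Pdcd1 at -0.02. With the median over constructs the same 4 lay below 0, and Btla+Havcr2+Pdcd1+Tigit, Havcr2+Pdcd1 and Btla+Pdcd1+Tigit passed as lower. In these 3 at most 1 of 6 constructs was detected per TIL replicate, so the TIL medians lay among constructs with almost no reads. These calls cannot tell a change in the tumour from the starting level.

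What Pdcd1 added to a given partner set was tested by the difference between a combination and the same set without Pdcd1. The fit held all 263 pairs of combinations that differ by 1 target. Adding Pdcd1 to Tigit gave the largest of the 8 differences. Pdcd1+Tigit minus Tigit was 2.04, 2.46 and 3.91 in TIL 1, 2 and 3 and -0.33, -0.35 and -0.49 in SR 1, 2 and 3, a change of 3.19 ± 0.62 (SE, n = 3; 95% interval 1.67 to 4.71). The unadjusted p was 0.00225 in limma, and the limma adjusted p = 0.0988 did not pass. By the lower region of each construct the change was 1.75 (limma adjusted p = 0.293). Pdcd1 alone over non-targeting constructs was next, at 2.62 (limma adjusted p = 0.430 in this fit). The differences were 0.82 ± 0.72 when Pdcd1 was added to Btla+Havcr2+Tigit, 0.77 ± 0.60 for Btla+Havcr2 and -0.24 ± 0.43 for Btla (SE, n = 3 each; limma adjusted p = 0.627, 0.577 and 0.795). They were -1.17 ± 0.72 for Havcr2, -1.33 ± 0.49 for Btla+Tigit and -1.95 ± 1.24 for Havcr2+Tigit (SE, n = 3 each; limma adjusted p = 0.472, 0.248 and 0.494). The difference for Btla+Tigit also had an unadjusted limma p under 0.05. In TIL the value of Btla+Pdcd1+Tigit rested on its construct E, whose regions disagreed. No construct of Btla or of Btla+Pdcd1 was detected, so the difference for Btla cannot tell a change in the tumour from the starting level. Adding Pdcd1 to these 7 sets and to non-targeting constructs thus gave 4 differences above 0 and 4 below, with a median of 0.26 beside 0.08 over all 263 pairs. In limma 0% of the 263 pairs passed as higher and 0.76% as lower, and of the 20 pairs that concern the 8 combinations 0 passed, with 2 higher and 3 lower at an unadjusted p under 0.05.

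The other 12 of those 20 pairs added a partner to a set that already held Pdcd1. Members with Tigit were detected in 9 of 72 cases, 12.5%, and members without it in 10 of 72, 13.9%, and the split by Havcr2 gave the same counts. The split by Btla had the widest gap and is described for that. Members with Btla were detected in 4 of 72 cases, 5.56% (Wilson interval 2.18 to 13.4%), and members without it in 15 of 72, 20.8% (13.1 to 31.6%), beside 11.4% for the whole library. Counting a construct over the threshold in either region, these became 8 of 72, 11.1% (5.74 to 20.4%), with Btla and 17 of 72, 23.6% (15.3 to 34.6%), without it. The median SR level was 960 CPM in the 24 constructs with Btla and 1275 CPM in the 24 without, and the part of starting abundance in the gap was not tested. Among the other checkpoint constructs the shares were 52 of 396 with Btla, 13.1%, and 73 of 468 without, 15.6%. Btla+Pdcd1 minus Pdcd1 was -4.30, -6.63 and -2.10 in TIL 1, 2 and 3 and -0.63, -1.05 and -0.97 in SR, a change of -3.46 ± 1.16 (SE, n = 3; unadjusted p = 0.0251, limma adjusted p = 0.214). Adding Btla to Pdcd1+Tigit changed the value by -2.34 ± 0.96, to Havcr2+Pdcd1+Tigit by -0.23 ± 0.76 and to Havcr2+Pdcd1 by 0.27 ± 1.15 (SE, n = 3 each; limma adjusted p = 0.270, 0.899 and 0.90). The 4 pairs that added Btla had a median of -1.28, the 4 that added Havcr2 -1.04 and the 4 that added Tigit 0.07, beside 0.16 for the 22 pairs that added Btla to other sets. Of the rest, Havcr2+Pdcd1+Tigit minus Pdcd1+Tigit was -2.37, -2.82 and -3.68 in TIL and -0.67, -0.95 and -0.73 in SR, a change of -2.18 ± 0.52 (SE, n = 3; unadjusted p = 0.00591, limma adjusted p = 0.152), and by the lower region of each construct -0.52 (limma adjusted p = 0.796). Btla+Pdcd1+Tigit minus Btla+Pdcd1 changed by 1.27 ± 0.44 (SE, n = 3; unadjusted p = 0.0277, limma adjusted p = 0.224), and by the lower region of each construct by -0.62 (limma adjusted p = 0.699). These 2 pairs and Btla+Pdcd1 against Pdcd1 were singled out by their unadjusted p after the values had been seen.

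The 9 Pdcd1 spacers differed in how often their members were detected, and the whole library was detected in 11.4% of cases. Spacer 7 gave 7 detections in 15 cases, from 4 of its 5 constructs. Of these 7, 2 came from Btla+Havcr2+Pdcd1+Tigit E, where spacer 7 stood at position 4, which was never read. Spacers 6 and 7 were the only ones with a detected member in each TIL replicate. Spacer 6 gave 4 in 15 cases, spacer 1 gave 4 in 12, spacer 5 gave 2 in 27, and spacers 3 and 8 gave 1 each in 18 and 15. Spacers 2, 4 and 9 gave 0 in 18, 15 and 9 cases. In the Pdcd1 constructs that also target Ctla4 or Adora2a the order was another: spacer 7 gave 14 detections in 39 cases and spacer 9 gave 14 in 45, while spacer 1 gave 5 in 36 and spacer 6 gave 2 in 33. Spacers 1 and 9, which cover the same site, thus stood at 4 of 12 against 0 of 9 cases among the members and at 5 of 36 against 14 of 45 elsewhere. Members with spacer 7 were also the most abundant before transfer, with a median of 2032 CPM in SR against 712 to 1371 CPM for members with the other spacers, and starting abundance and spacer were not separated. GC content was 70.0% in spacer 7 and 45 to 65% in the others. Constructs that share a spacer are not independent, so these counts are a description.

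Detected members had started at higher levels. The 13 members detected at least once had a median of 1616 CPM in SR (528 to 4523 CPM), and the 35 others a median of 885 CPM (110 to 2241 CPM). Split at the tertiles of SR abundance of the whole library, members in the highest tertile were detected in 12 of 45 cases, 26.7%, those in the middle tertile in 6 of 60, 10.0%, and those in the lowest tertile in 1 of 39, 2.56%. The library as a whole had 20.4, 11.1 and 2.75% in the same tertiles. The Pdcd1 sgRNA stood at position 1 in 22 constructs, with 10 of 66 cases detected, at position 2 in 17, with 6 of 51, at position 3 in 8, with 1 of 24, and at position 4 in 1, with 2 of 3. By number of target genes, members with 1, 2, 3 and 4 were detected in 33.3, 13.0, 5.56 and 16.7% of 18, 54, 54 and 18 cases. The whole library stood at 11.4%. Position and number of target genes were not separated from starting abundance.

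The regions of a construct disagreed in a few cases that weigh on these values. Of the 144 cases, 6 exceeded the threshold in 1 region only, 4.17% beside 3.19% of the library, 4 of them in region 1 and 2 in region 2. Btla+Pdcd1+Tigit E accounted for 3 of the 6, which had 3 scaled reads in region 1 and 104962 in region 2 of TIL 1, 22 and 281472 in TIL 2, and 60111 and 0 in TIL 3. Averaged over the regions it had 3654, 8747 and 1323 CPM in TIL 1, 2 and 3, against 1458, 1219 and 1383 CPM in SR, which gave the highest change of the 48 members, 1.37 ± 0.73 (SE, n = 3; limma adjusted p = 0.165), and 9.77 ± 1.03 relative to non-targeting constructs (SE, n = 3; limma adjusted p = 0.0159). By the lower of its regions it fell, by -9.87 (limma adjusted p = 1.65e-06), an alternative added after the data had been seen. Pdcd1+Tigit A had 1606098 scaled reads in region 1 and 126660 in region 2 of TIL 1, and 1171633 and 29 in TIL 2. In region 1 it ranked first of all 689 constructs in both pools, with 7.47 and 5.09% of the reads, while in region 2 it held 0.882% in TIL 1 and 0.00018% in TIL 2. Both constructs carry Tigit spacer 3, and the other library constructs with that spacer in a read position disagreed in this way in 1 of 39 cases, 2.56%, beside 3.19% of the library. The remaining cases, both in TIL 3, were Pdcd1+Tigit D, with 97779 and 0 scaled reads in regions 1 and 2, and Btla+Havcr2+Pdcd1 A, with 376045 and 0. Each spacer pair of a region belongs to 1 construct in the deposited names, with 689 distinct pairs in either region.

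The replicates differed in which members they held. Of the 6 members detected in 2 replicates, 4 were detected in TIL 1 and TIL 2, 1 in TIL 1 and TIL 3 and 1 in TIL 2 and TIL 3. These are 8.33, 2.08 and 2.08% of the members. The whole library had 29, 18 and 14 constructs in these overlaps, which is 4.21, 2.61 and 2.03%. Each library overlap also counts the 6 library constructs detected in all 3 replicates. With replicate 3 left out, 6 members rose, 12.5% beside 4.06% of all constructs: Pdcd1+Tigit A by 4.39 ± 0.35, Pdcd1 A by 3.58 ± 0.37, Pdcd1 E by 3.57 ± 0.30, Havcr2+Pdcd1 C by 2.40 ± 0.14, Btla+Pdcd1+Tigit E by 2.08 ± 0.55 and Btla+Havcr2+Pdcd1+Tigit E by 1.88 ± 0.31 (SE, n = 2; limma adjusted p = 0.0016, 0.0032, 0.00187, 0.000725, 0.0391 and 0.0114). Among these 6, Btla+Pdcd1+Tigit E exceeded the threshold in 1 region only in both TIL 1 and TIL 2. Pdcd1+Tigit A did so in 1 region only in TIL 2. With replicate 1 or replicate 2 left out, 0 members rose, beside 1.02% of all constructs in either case. Averaged over the 48 constructs, the change relative to non-targeting constructs was 1.09, 1.34 and 0.34 in replicates 1, 2 and 3. The mean over all 101 combinations was 0.87, 0.89 and 0.35 in the same replicates.

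In the authors' deposited table, 6, 4 and 2 of the 48 were up by 2-fold or more in each region of replicates 1, 2 and 3, which is 12.5, 8.33 and 4.17% beside 8.71, 7.55 and 6.1% of the library. Pdcd1 alone had 2, 2 and 0 such constructs with a log2 enrichment of 2.28, 2.48 and 0 in the authors' deposited table, where 2, 1 and 4 combinations stood above every one of the 8 in replicates 1, 2 and 3. Btla+Havcr2+Pdcd1+Tigit was the only 1 of the 8 with a construct up in each replicate, 1 every time, by the same deposited table (log2 enrichment of 1.69, 1.90 and 2.20). It was construct E in replicates 1 and 2, with the authors' deposited log2 ratios at 1.18 and 2.30, and construct D in replicate 3, at 1.54. Pdcd1+Tigit, with the highest mean change of the 8 in the fit above, had 1, 0 and 0 constructs up in the authors' deposited table. The authors' deposited counts were 0 in every replicate for Btla+Pdcd1, Btla+Pdcd1+Tigit and Btla+Havcr2+Pdcd1.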

How the data were processed

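The measurement was the abundance of 4-sgRNA constructs in genomic DNA, in 12 samples: 3 TIL and 3 SR replicates over 2 regions. The deposited scores are scaled reads per construct, which the authors multiplied by an unstated factor of the library and rounded, as the step between low values shows; they are not raw counts, so no count test was used. Bowtie2 is named in the submitters' processing notes, and its version and role are not given there. The deposited log2 values are the authors' TIL over SR ratios per region, returned within 5.0e-05 as log2 with 10 added to both values. The authors' deposited log2 enrichment per combination was used as given. SR columns carry no replicate number in the file headers and took the number of the TIL library in the same table. Deviations of TIL and SR libraries of a table from their group means correlated at 0.075, -0.082 and 0.086, so the main tests did not pair them. Fold values over SR, changes by replicate and the authors' log2 ratios do set each TIL library against the SR of its table. The limma fit of those ratios tested their mean over 3 replicates against 0.

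Scaled reads were divided by library totals over 689 constructs (1 line of each table was emptied for this work), averaged over regions and tested as log2(CPM + 1) with limma 3.58.1 in R 4.3.3, 3 TIL against 3 SR, with Benjamini-Hochberg adjustment over 689 constructs, 101 combinations or 263 pairs and a threshold of 0.05. No filter on low values was applied, and all 48 members were tested. Because the scaling factor is not given, no limit is set on a value of 0. The fits were tested on simulated data. All 4 target symbols matched the RefSeq gene table. Spacers have no coordinates here, since the genome build is not given. All 8 combinations are named; constructs are named where they target Pdcd1 alone, were detected in 2 or more TIL replicates, or had 1 of the 2 highest or 2 lowest changes, and others where a value rests on them. The members, the detection threshold and this rule were chosen with earlier results of these data known. Alternatives were another pseudocount, a filter on SR abundance, single regions, the lower region, medians, other centring, the authors' ratios, the replicate number as a block and each replicate left out.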

Additional observations from a re-analysis of the deposited data

How the results depend on the processing

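The depth behind the scaled reads is unknown, 3 pooled TIL replicates that share few detected constructs limit every test, and causes of the changes below were not tested. Of the 48 constructs, 9 fell and 1 rose when scaled on the non-targeting constructs, and 0 to 6 rose and 32 to 39 fell with 1 replicate left out. Replicate 3 was the 1 whose absence gave the 6. Among the 8 combinations, 1 passed as above non-targeting constructs under each of 4 settings: Pdcd1+Tigit with a pseudocount of 0.5 and in region 1 only, Btla+Havcr2+Pdcd1 with the median over constructs, and Pdcd1 with the authors' log2 ratios. With the median 3 passed as below: Btla+Havcr2+Pdcd1+Tigit, Havcr2+Pdcd1 and Btla+Pdcd1+Tigit. With the median, 1 of the 8 pairs adding Pdcd1 was lower, and of the 12 pairs adding a partner 1 was higher and 3 were lower. Where most constructs of a combination were undetected, calls by the median cannot tell a change in the tumour from the starting level. Leaving out 1 replicate called 0 combinations and 0 pairs. The replicate number as a block, although the numbers did not pair the samples, left 32 constructs lower and 0 higher, and 0 combinations and 0 pairs called. Detection of the 48 stood at 12.5 to 14.6% of cases with 1 replicate left out, 13.2% with thresholds of 200 or 5000 scaled reads and 17.4% with either region (library 14.6%). A minimum of 100 CPM in SR left out 14 constructs and 0 members.

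Directions turned as follows. Btla+Havcr2+Pdcd1+Tigit was -0.129 with a pseudocount of 10, -0.826 with the median and -0.257 centred on all constructs. Btla+Pdcd1 was 0.345 with the median. Btla+Pdcd1+Tigit was -0.719 in region 1, -0.114 in region 2, -0.022 without replicate 2 (up to 0.98 without replicate 3), -0.333 with the median, -0.297 by the authors' ratios, -0.19 centred on all constructs and -1.501 by the lower region, an alternative added after seeing the data. Havcr2+Pdcd1 was -0.68 with the median and -0.02 centred on all constructs, and Havcr2+Pdcd1+Tigit -0.053 and -0.03. Btla+Pdcd1 over Btla was 0.376 with the SR minimum and 0.158 with the median, and Havcr2+Pdcd1+Tigit over Havcr2+Tigit 0.024 with the median. Btla+Havcr2+Pdcd1 over Havcr2+Pdcd1 was -0.065 in region 2, -1.081 without replicate 3 (up to 0.982 without replicate 1), -0.005 by the authors' ratios and -0.086 by the lower region. Btla+Havcr2+Pdcd1+Tigit over Havcr2+Pdcd1+Tigit was 0.058 without replicate 1 and 0.161 without replicate 3, against -0.899 without replicate 2. Btla+Pdcd1+Tigit over Btla+Pdcd1 was -0.02 in region 1, -0.678 with the median and -0.617 by the lower region. With 1 replicate left out, Btla+Havcr2+Pdcd1+Tigit E lay between -4.677 and 1.878, Havcr2+Pdcd1 C between -4.177 and 2.398, Pdcd1 A between -3.688 and 3.583, Pdcd1 E between -3.536 and 3.57 and Pdcd1+Tigit A between -2.987 and 4.388, each highest without replicate 3. With a pseudocount of 10, Pdcd1 A was 0.003, Pdcd1 E 0.07 and Pdcd1+Tigit A 0.635, the last also 0.052 in region 1. Pdcd1 F lay between -5.423 and 0.705, highest without replicate 1, and Pdcd1+Tigit F between -5.451 and 0.294, highest without replicate 2. Btla+Pdcd1+Tigit E was -6.357 in region 1, -1.276 in region 2 and -9.867 by the lower region.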
